A study of Mus musculus with 40 samples.

Results

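The SMC5/6 complex is a ring-shaped ATPase of the same protein family as cohesin and condensin, and 8 genes of it were followed here in the mouse forebrain with and without an added copy of Chd8. The members are Smc5 and Smc6, the paired ATPases that form the ring, Nsmce4a, Nsmce3 and Nsmce1, which form a subcomplex at the ATPase heads, Nsmce2, a SUMO ligase docked on SMC5, and Slf1 and Slf2, which bring the complex to damaged DNA. They are 8 of 17940 genes listed at E14.5 (E for embryonic day) and 8 of 15449 at E18.5. Nsmce1 was chosen by its change at E14.5 in these data, and the other 7 were selected on their place in the complex. Every value of Nsmce1 at E14.5 is therefore a description. All 8 had an adjusted p at each stage, so none was lost to the authors' filter on low counts.

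RNA from the forebrain of male embryos was sequenced as polyadenylated RNA, from 5 wild-type (WT) and 5 Chd8 knock-in (KI) libraries at E14.5 and the same numbers at E18.5. CHD8 is a chromatin remodeler linked to autism, and the series title describes the KI mice as a model of its gene's duplication. The labels used here give neither the strain, the site or promoter of the added copy, the litters, nor the tissue in which the copy is active. The libraries of a group may or may not come from separate litters, so p-values measure the spread between these libraries.

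Each of the 2 tables holds the KI-to-WT comparison as the authors computed it, with 1 row per gene and no value per library. Levels are the authors' mean over all 10 libraries of a stage, so they carry no SD here, and the total count per library is unknown here. The median standard error (SE) of a log2 fold change was 0.068 at E14.5 (13417 tested genes) and 0.073 at E18.5 (13601 tested genes). A gene is called when its deposited adjusted p is under 0.05, and 162 genes (1.21%) were called at E14.5 and 9 (0.0662%) at E18.5. The tables do not say which genotype is the numerator. Chd8 was positive in the authors' deposited table at each stage (log2 fold change 0.64, SE 0.031, and 0.51, SE 0.038), so a positive value is read as higher in KI, and Chd8 does not check the labels independently. The neuronal marker Dcx had a mean normalized count of 35125 at E14.5 and 40870 at E18.5. Of 5 liver and muscle markers, 0 passed the count filter of the E14.5 table and 1 that of the E18.5 table. DESeq2 by default withholds the p of a gene in which a library has an extreme count. There are 3 genes listed without a p at E14.5 and 85 at E18.5, and 0 of the 8 members is among them at either stage. At E18.5 these 85 include all 6 markers of meninges and choroid plexus, among them Ttr (mean normalized count 2718, SE 1.88) and Col3a1 (490, SE 1.23) in the authors' deposited table. The libraries behind this cannot be named from these tables, so no E18.5 value could be given without them. In bulk tissue, fewer cells of a type and less RNA per cell cannot be told apart.

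SMC5/6 entraps DNA and is known for its work on replication intermediates and recombination, where it limits joined chromosomes that would otherwise be pulled apart at mitosis. Nsmce1 carries a RING-type domain of the ubiquitin ligase kind, and its partner Nsmce3 belongs to the MAGE family, whose members bind such ligases. Inherited defects of NSMCE2, NSMCE3, SMC5 and SLF2 cause human growth, immune or brain-size disorders. Dividing progenitors of the embryonic forebrain replicate their DNA at high rate, and neurons do not divide.

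Nsmce1, listed under NCBI gene ID 67711, spans positions 125467644 to 125491443 of chromosome 7 (GRCm38, minus strand). It covers 23800 bases with no overlapping gene in RefSeq. RefSeq gives it 2 start windows, and the deposited counts are per gene, so they do not say which start's transcripts differ. The 250 bases before the outer start, which gives the full-length gene, are shown because Nsmce1 is the member that differed. They lie at chr7:125491444-125491693 and are printed 5′ to 3′ on the minus strand (RefSeq, GRCm38.p6).

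Nsmce1 outer start: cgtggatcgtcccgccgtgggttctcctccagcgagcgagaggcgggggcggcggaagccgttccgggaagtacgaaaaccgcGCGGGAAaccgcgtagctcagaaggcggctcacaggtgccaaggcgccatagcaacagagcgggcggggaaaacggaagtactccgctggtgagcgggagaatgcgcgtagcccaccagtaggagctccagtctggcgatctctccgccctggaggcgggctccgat

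The capitals mark the reverse-strand letters of an E2F core (TTCCCGC, searched on both strands), beginning 167 bases before the start. That motif is in 3.82% of 32851 mouse start windows of the same length. The window held 30 CpG dinucleotides and 66.8% G and C, against medians of 6 and 52.4% over all windows. The inner start, 250 bases ending at 125487960 on the minus strand, held 0 CpG and 37.6% G and C. Windows were found for 6 of the 8 members, and Nsmce2 and Slf2 had no entry. The windows of the other members held 21 (Slf1), 16 (Nsmce3), 14 (Smc6), 9 (Nsmce4a) and 4 (Smc5) CpG. An ETS core (CCGGAAG, both strands) was in the windows of Smc6 and Slf1 and in 6.91% of all windows. The E2F core was also in that of Slf1. The Slf1 window, positions 77135469 to 77135718 on the minus strand, lies partly inside the gene, which extends to 77135513. Its E2F and ETS cores, beginning 10 and 33 bases before that window's start site, are in the part inside the gene. A CCAAT box was in the windows of Nsmce4a and Slf1, in the inner window of Nsmce1 and in 33.8% of all windows. A TATA box (12.4% of all windows) and an NRF1 core (GCGCATGC, 2.26%) were in that of Nsmce3. A YY1 core (ATGGCGGC) was in no member's window. The only Smc5 window, positions 23272600 to 23272849 on the minus strand, lies inside the gene, which extends to 23273922. It held none of the 6 motifs searched, and no window at the outer end of Smc5 was searched. A match here is only a match of letters.

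In the E14.5 forebrain Nsmce1 fell in KI. The authors' deposited table puts it at a log2 fold change of −0.42 (SE 0.065), which is −25.2% with a 95% interval of −31.5% to −18.3%. Its mean normalized count was 595, close to the middle of the tested genes (49.1st percentile). No other of the 13417 tested genes had a lower Wald statistic, which is the log2 fold change divided by its SE (−6.48 for Nsmce1). This is the value for which the gene was picked. Across the members, 1 of 8 was called lower and 0 were called higher, where 0.47% of all tested genes were called lower.

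The E18.5 libraries are other embryos than those of E14.5, although the results of both stages were known when the members were chosen. There Nsmce1 was again below 0 in the authors' deposited table, at −0.26 (SE 0.077), or −16.3% with a 95% interval of −24.6% to −7.01%. The deposited p was 0.000904 before adjustment and 0.231 after it, so the gene was not called. With its SE at E18.5, a log2 fold change of 0.32 in size would have been needed, since the smallest Wald statistic among called genes was 4.21 in size. Ranked by the authors' deposited table, 26 of 13601 genes had a lower Wald statistic at E18.5. The mean normalized count was 507.

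For Nsmce1 the log2 fold change was higher by 0.16 (SE 0.101) at E18.5 than at E14.5, given without a test because E14.5 chose the gene. The falls of E14.5, Nsmce1 among them, give a frame for the E18.5 value. Of the 63 genes called lower at E14.5, all 63 were tested at E18.5 and 52 were below 0 there. At E18.5, 23 of the 63 had an unadjusted p under 0.05 in that direction and 1 was called. Over all tested genes at E18.5, 51.2% were below 0, 2.82% were lower with such a p and 0.0221% were called lower. The median log2 fold change of the 63 was −0.24 at E14.5 and −0.07 at E18.5. The 63 were chosen by their E14.5 values, so these 2 medians are a description. Nsmce1 ranked 1 of the 63 by lowest Wald statistic at E14.5 and 7 at E18.5, behind Atp2b4, Draxin, Crlf2, Tmem209, Lrrc61 and Ift122, which are named here after their values were seen.

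**Figure D1:**
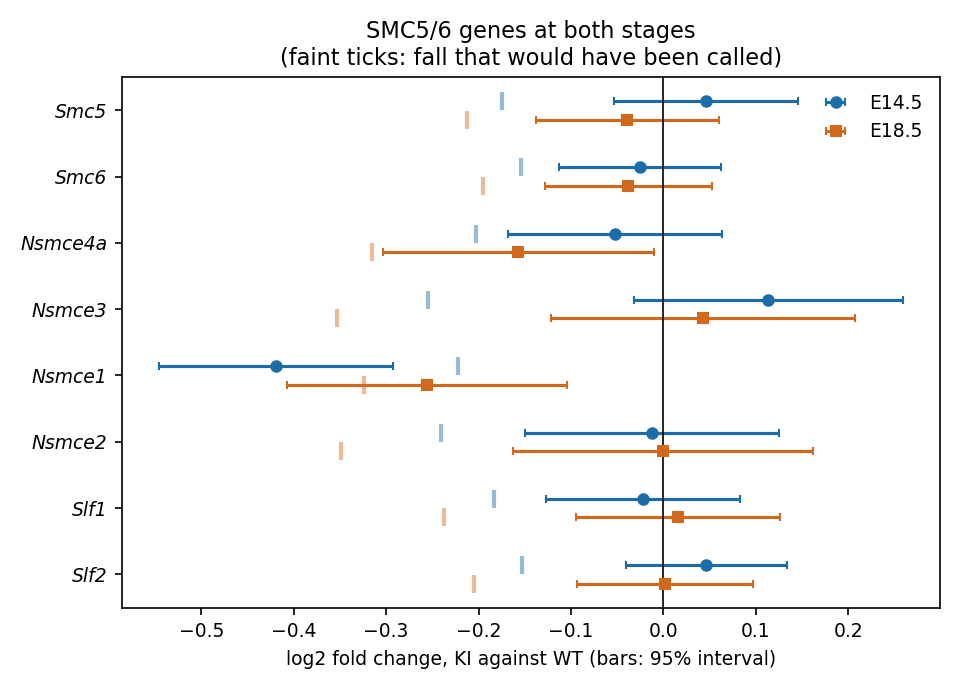
Log2 fold change of KI against WT for the 8 SMC5/6 genes at E14.5 (circles) and E18.5 (squares), with 95% intervals; a faint tick marks the fall at which each gene would have been called at that stage. The interval of Nsmce1 lies wholly below 0 at both stages, that of Nsmce4a at E18.5 only, and those of the other 6 genes span 0.

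The ATPase genes showed no called change. In the authors' deposited table Smc5, on chromosome 19, stood at 0.05 (E14.5, SE 0.051, adjusted p = 0.802) and −0.04 (E18.5, SE 0.050, adjusted p = 0.9999). The 95% intervals were −3.66% to 10.6% and −9.11% to 4.24%, so a fall as large as the E18.5 value of Nsmce1 lies outside them. Smc6, on chromosome 12, stood at −0.03 (SE 0.045, adjusted p = 0.893) and −0.04 (SE 0.046, adjusted p = 0.9999) by the authors' deposited table, with intervals of −7.56% to 4.44% and −8.53% to 3.74%. The start of Smc6 overlaps that of Gen1, a Holliday junction resolvase gene, which stood at 0.02 (SE 0.087) and −0.10 (SE 0.153) by the authors' deposited table. The sources used here do not say whether counting used strand, so reads in such an overlap are uncertain.

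Nsmce4a and Nsmce3, the partners of NSMCE1 in its subcomplex, had values of opposite sign and no call. Nsmce4a, the kleisin that closes the ring, stood at −0.05 (E14.5, SE 0.059, adjusted p = 0.805) and −0.16 (E18.5, SE 0.075, adjusted p = 0.805), as the authors' deposited table gives it. The E18.5 value is −10.3% with a 95% interval of −19.0% to −0.695% and an unadjusted p of 0.0362, and it was not called. Nsmce3, the MAGE subunit, stood above 0 in the authors' deposited table of each stage, at 0.11 (SE 0.074, adjusted p = 0.585) and 0.04 (SE 0.084, adjusted p = 0.9999). Its intervals, −2.18% to 19.7% and −8.08% to 15.5%, span 0. Nsmce3 is 1359 bases long and lies within the span of Fam189a1, which was at −0.05 (SE 0.121) and −0.03 (SE 0.073) by the authors' deposited table.

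Nsmce2, the SUMO ligase gene, had no called change. The authors' deposited table puts it at −0.01 (E14.5, SE 0.070, adjusted p = 0.972) and 0.00 (E18.5, SE 0.083, adjusted p = 0.9999). Its intervals were −9.83% to 9.06% and −10.7% to 11.9%.

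The loading factors were also uncalled. Slf1, which has BRCT domains and ankyrin repeats and binds RAD18, stood at −0.02 (SE 0.054, adjusted p = 0.931) and 0.02 (SE 0.056, adjusted p = 0.9999) by the authors' deposited table. Slf2, the bridge from SLF1 to the complex, stood at 0.05 (SE 0.044, adjusted p = 0.759) and 0.00 (SE 0.049, adjusted p = 0.9999) by the authors' deposited table. The widest of their 4 intervals ran from −8.45% to 5.89% at E14.5 and from −6.37% to 9.12% at E18.5, both those of Slf1.

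Over all members, 5 of 8 log2 fold changes were below 0 at E14.5 and 5 of 8 at E18.5, with medians of −0.02 and −0.02. Over all tested genes 50.2% and 51.2% were below 0, with medians of 0.00 and 0.00. Without Nsmce1 the remaining 7 had 4 values below 0 at each stage and medians of −0.01 and 0.00. At E18.5 no member was called by the authors' DESeq2 test, where 0.0221% of genes were called lower. There 2 of the 8, Nsmce1 and Nsmce4a, were lower with an unadjusted p under 0.05, where 2.82% of all tested genes were. The difference between stages was tested for the 7 members other than Nsmce1, over 13106 genes measured at both. It passed for 0 of the 7, as for 0 (0%) of all genes, and 0 of the 7 had an unadjusted p under 0.05, against 593 (4.52%) of all genes. The widest of these 7 intervals was that of Nsmce3, from −0.29 to 0.15 on the log2 scale, and the narrowest that of Smc6, from −0.14 to 0.11.

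**Figure D2:**
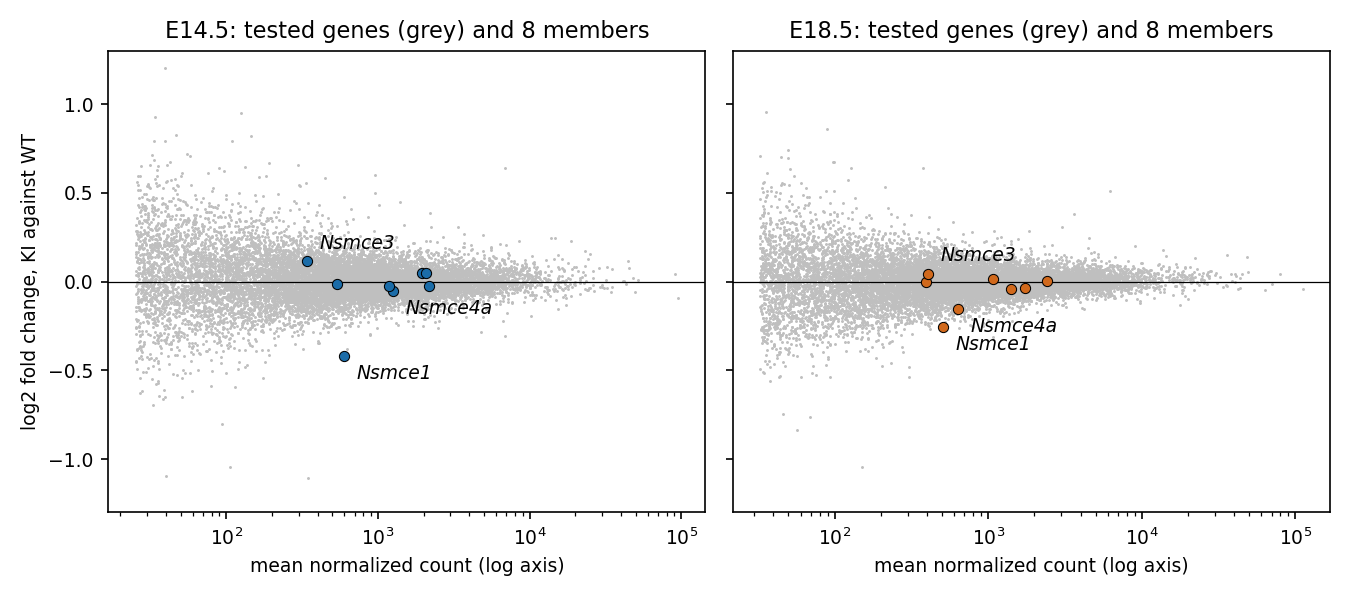
Log2 fold change of KI against WT against mean normalized count (log axis) for every tested gene (grey) and the 8 members (coloured), at E14.5 and E18.5. Nsmce1 lies at the lower edge of genes of its level, at −0.42 and −0.26, while the other members lie within the grey cloud.

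Levels of the members are given within each gene, since no transcript lengths were used here and counts of different genes compare only per length. The 2 tables were normalized separately, so the place of a gene among the tested genes of its table is given beside its count. Nsmce4a had a mean normalized count of 1263 (70.3rd percentile) at E14.5 and 639 (49.9th) at E18.5. Smc5 had 1960 (81.0th) and 1400 (71.9th), and Smc6 had 2181 (83.3rd) and 1741 (77.4th). Slf2 had 2063 (82.1st) and 2413 (84.3rd), and Slf1 had 1176 (68.5th) and 1071 (64.8th). Nsmce1 moved from the 49.1st to the 43.6th percentile, Nsmce2 from 536 (46.1st) to 395 (37.0th) and Nsmce3 from 339 (34.5th) to 407 (37.8th). The place was lower at E18.5 for 6 members and higher for Slf2 and Nsmce3. The proliferation marker Mki67 had 10338 and 2070 in the same tables.

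No tested gene next to Nsmce1 was called. Over all tested genes, 1.21% were called at E14.5 and 0.0662% at E18.5. Within 1 Mb there were 12 tested genes at each stage, and the authors' DESeq2 test called 0 at E14.5 and 0 at E18.5. Of these 12, 1 at each stage had an unadjusted p under 0.05 (counts over all tested genes are given with the 5 Mb window below). Their median log2 fold change was 0.01 at E14.5 (5 of 12 below 0) and −0.03 at E18.5 (9 of 12 below 0). The nearest, Kdm8, a JmjC-domain gene on the plus strand, ends 3.99 kb from Nsmce1. In the authors' deposited table Kdm8 stood at 0.15 (SE 0.124, adjusted p = 0.718) and −0.15 (SE 0.148, adjusted p = 0.9999). On the other side, the interleukin 4 receptor gene Il4ra stood at 0.34 (SE 0.187, adjusted p = 0.477) and −0.06 (SE 0.210, adjusted p = 0.9999) by the authors' deposited table.

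Gtf3c1, a TFIIIC subunit, had the smallest SE of the 4 tested genes within 250 kb at each stage, at 0.01 (SE 0.034) and −0.02 (SE 0.037) by the authors' deposited table. The 1 with an unadjusted p under 0.05 was Gsg1l at E14.5 (−0.13, SE 0.065, adjusted p = 0.432) and D430042O09Rik at E18.5 (−0.18, SE 0.065, adjusted p = 0.593) by the authors' deposited table. The remaining tested genes of the window, Xpo6, Sbk1, Spns1, Nfatc2ip, Rabep2, Sh2b1 and Tufm, lay between −0.04 and 0.04 at E14.5 and between −0.09 and 0.07 at E18.5, from the authors' deposited table. Around the other 7 members the median within 1 Mb ran from −0.05 (Smc6) to 0.10 (Smc5) at E14.5. These windows held 5 (Smc6 and Slf1) to 24 (Slf2) tested genes each. The 1 neighbour called there was Cyria, of the 5 near Smc6, where 1.21% of all tested genes were called. At E18.5 the medians ran from −0.01 (Smc5) to 0.01 (Slf2), and 0 neighbours were called. Nsmce4a lies 5.04 Mb from Nsmce1 on the same chromosome. Within 5 Mb of Nsmce1, 121 genes were tested at each stage, and 1 (Kctd13) was called at E14.5 and 0 at E18.5. Over all 13417 tested genes at E14.5, an unadjusted p under 0.05 was found for 708 lower and 840 higher. Over all 13601 at E18.5 it was found for 384 lower and 426 higher. Among the 121 neighbours it was found for 18 at E14.5 and 7 at E18.5. Prss36 is among them at both stages, at −0.40 (SE 0.147, adjusted p = 0.181), the lowest of these neighbours at E14.5, and −0.32 (SE 0.153, adjusted p = 0.805) by the authors' deposited table.

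**Figure D3:**
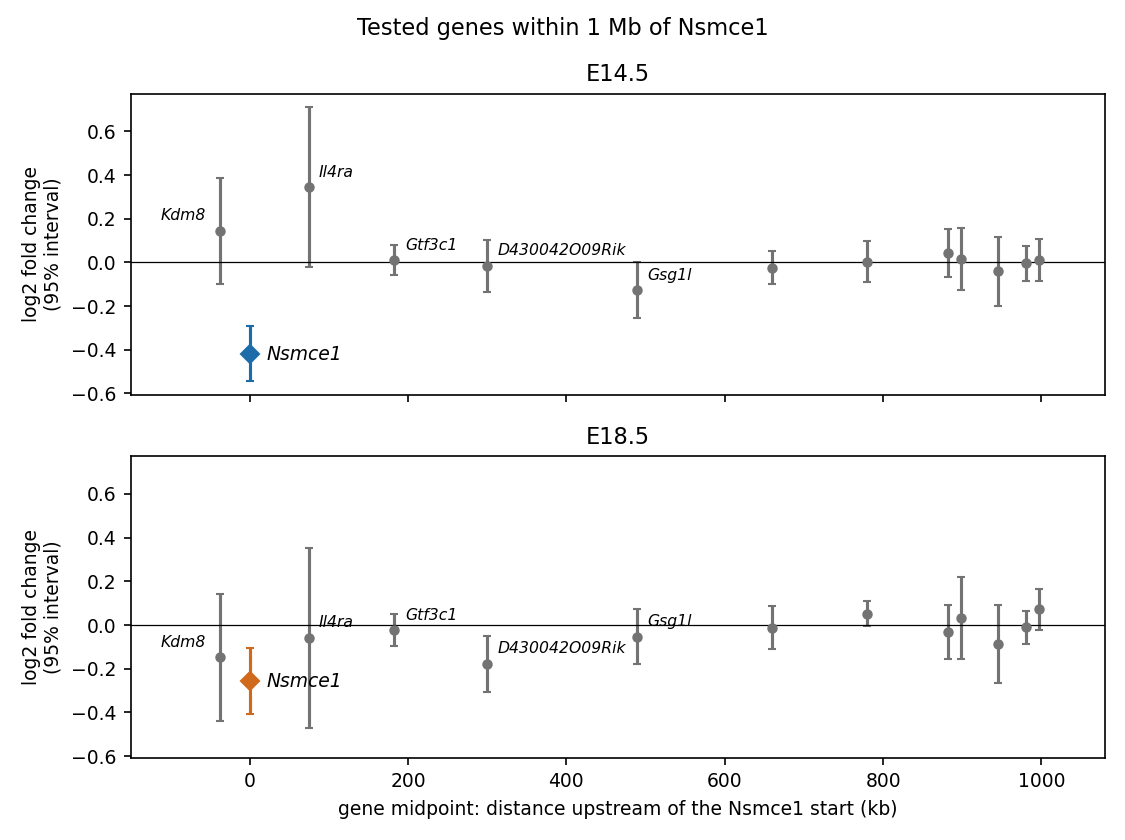
Log2 fold change (95% interval) of Nsmce1 (diamond) and of the 12 tested genes within 1 Mb (grey circles), by distance of each gene's midpoint upstream of the Nsmce1 start, at E14.5 and E18.5; Kdm8 is the only one downstream. At E14.5 no interval of a neighbour reaches the −0.42 of Nsmce1, whereas at E18.5 those of Kdm8, Il4ra, D430042O09Rik and Rabep2 reach its −0.26.

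The pathways around SMC5/6 were read from 7 lists. Of the 15 cohesin genes, which hold sister chromatids together, none was called, with medians of −0.03 and −0.02. The ring genes Smc1a, Smc3 and Rad21 stood at −0.03, 0.01 and −0.01 at E14.5 and −0.02, −0.06 and −0.01 at E18.5 (SE 0.036 to 0.051) by the authors' deposited table. Of the 8 condensin genes, which compact mitotic chromosomes, none was called at either stage. Their medians were −0.03 at E14.5 and −0.11 at E18.5, where all 8 were below 0. Smc2 stood at −0.10 (SE 0.042, adjusted p = 0.262) and −0.14 (SE 0.065, adjusted p = 0.805) by the authors' deposited table. Smc4 stood at 0.09 (SE 0.040) and −0.03 (SE 0.058) and Ncapd2 at 0.09 (SE 0.036) and −0.05 (SE 0.048) by the authors' deposited table.

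The 20 SUMO pathway genes, to which the ligase activity of NSMCE2 belongs, had no call at either stage and medians of −0.01 and −0.02. The modifier genes Sumo2 and Sumo3 stood at 0.01 and −0.04 at E14.5 (SE 0.053 and 0.042) and 0.04 and −0.04 at E18.5 (SE 0.044 for each) by the authors' deposited table. Of the 9 tested genes for recruitment to damage or stalled DNA none was called (medians 0.01 and −0.07). Rad18, the ligase that SLF1 binds, stood at −0.10 (SE 0.087, adjusted p = 0.719) and −0.12 (SE 0.114, adjusted p = 0.9999), and the ubiquitin ligase genes Rnf168 and Rnf8 at 0.01 and 0.08 at E14.5 (SE 0.054 and 0.059) and 0.00 and 0.06 at E18.5 (SE 0.057 and 0.062) by the authors' deposited table. Simc1, the partner of SLF2 in a second loading route, stood at −0.09 (SE 0.056, adjusted p = 0.535) and 0.03 (SE 0.067, adjusted p = 0.9999) by the authors' deposited table. Mdc1, a scaffold at DNA breaks, was the lowest of the list at E14.5, at −0.17 (SE 0.050, unadjusted p 0.000764, adjusted p = 0.0568), and stood at −0.15 (SE 0.063, unadjusted p 0.0205, adjusted p = 0.770) at E18.5 by the authors' deposited table, not called at either stage.

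Homologous recombination genes had 13 of 18 values above 0 at E14.5 (median 0.05) and 15 of 17 below 0 at E18.5 (median −0.10), with no call at either stage. Rad51c stood at 0.08 (SE 0.107) and −0.16 (SE 0.154), and Rad51b at 0.08 (SE 0.171) at E14.5, in the authors' deposited table; Rad51b was too low to be tested at E18.5. The 14 replication stress genes had medians of 0.01 and −0.06 and 1 call. That was Timeless, a fork-protection gene, which rose at E14.5 (0.24, SE 0.054, adjusted p = 0.00357) and stood at 0.06 (SE 0.094, adjusted p = 0.9999) at E18.5, from the authors' deposited table. It is named because it was called. Among all 13417 tested genes at E14.5, 99 were called higher. The checkpoint genes Atr, Atrip and Chek1 lay between −0.06 and 0.08 at E14.5 and between −0.10 and 0.01 at E18.5, from the authors' deposited table.

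The MAGE family, relatives of Nsmce3, had 6 of 7 values above 0 at each stage (medians 0.02 and 0.06) and no call. Magel2 stood at 0.41 (SE 0.149, adjusted p = 0.169) and 0.17 (SE 0.217, adjusted p = 0.9999), and Ndn and Maged1 at 0.02 and 0.01 at E14.5 (SE 0.033 and 0.029) by the authors' deposited table.

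Markers of cell types were read beside these values. Of 7 dividing-progenitor markers 5 were above 0 at E14.5 (median 0.01) and 0 at E18.5 (median −0.09), with no call at either stage. Of 8 neuronal markers 7 were below 0 at E14.5 (median −0.04), with 1 called lower (Neurod6), and 2 at E18.5 (median 0.03). Of 7 radial glia markers 3 were above 0 at E14.5 (median −0.01) and 2 at E18.5 (median −0.07), with no call at either stage. An unadjusted p under 0.05 was found for 2 of them at E14.5, both higher, and for 1 at E18.5, which was lower. The same counts over all tested genes are given above with the 5 Mb window. The 4 tested erythroid markers were all above 0 at E14.5 (median 0.50, 2 of them called higher), and the 2 tested at E18.5 had a median of 0.19. Among all 13417 tested genes at E14.5, 99 were called higher and 63 lower. The 4 tested microglial markers had medians of 0.06 and 0.09 and the 5 endothelial ones −0.01 and 0.00. The 2 tested markers of meninges and choroid plexus had a median of 0.34 at E14.5, and 0 were tested at E18.5, where all 6 lack a p. The part of these cell types in the values of Nsmce1 or of any other member was not tested.

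**Figure D4:**
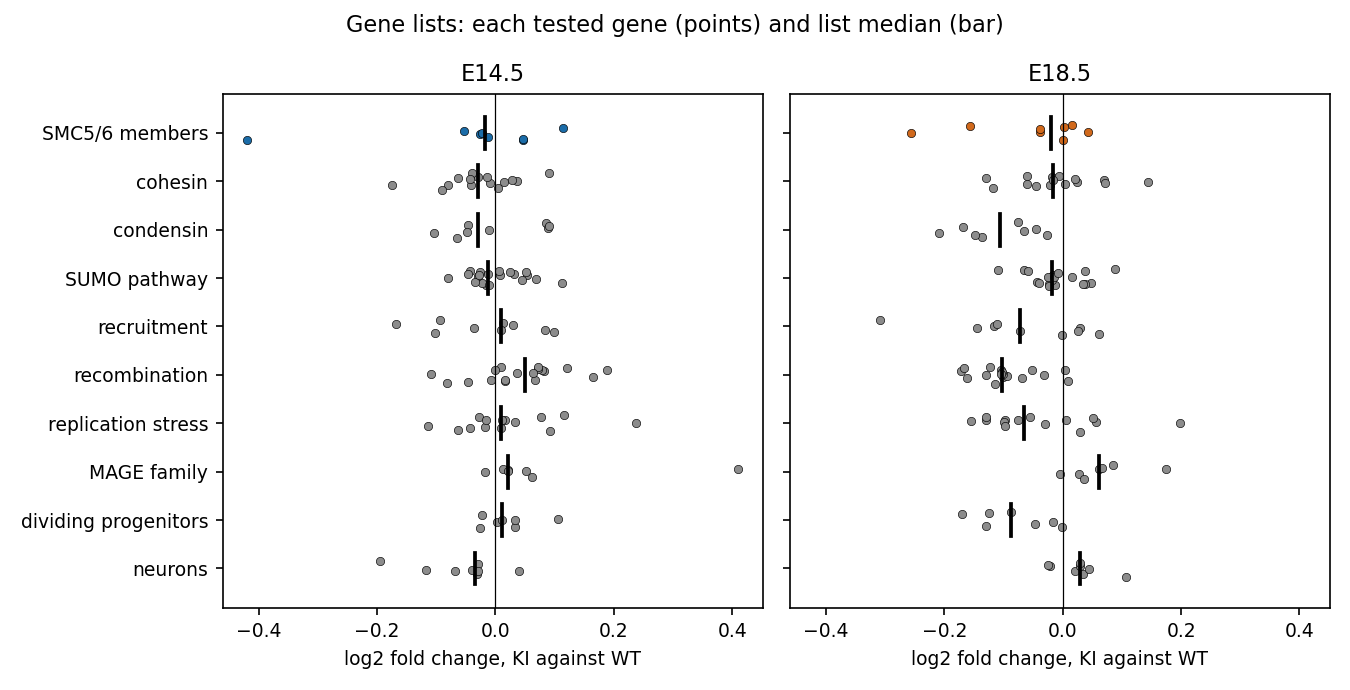
Log2 fold change of KI against WT of every tested gene (points; vertical scatter has no meaning) and the median (bar) for the SMC5/6 members, 7 related pathway lists and 2 marker lists, at E14.5 and E18.5. Among the members Nsmce1 lies apart at E14.5 at −0.42, the condensin and dividing-progenitor genes all lie below 0 at E18.5, and recombination genes have medians of 0.05 and −0.10.

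The genes with the pair of log2 fold changes nearest to that of Nsmce1 were sought by straight-line distance over the 2 comparisons. There were 12270 genes, Nsmce1 included, whose mean normalized count was 50 or more at each stage. Of these, genes without a matched symbol or with a Gm-numbered or Rik symbol were left out of the search, so such a gene could lie nearer. The nearest 5 were Pth1r (distance 0.032), Shld1 (0.037), Kcnmb4os2 (0.049), Prss36 (0.066), the neighbour of Nsmce1 described above, and Krt10 (0.069). Shld1, a shieldin subunit that protects broken DNA ends, stood at −0.45 (SE 0.144, adjusted p = 0.0815) and −0.24 (SE 0.133, adjusted p = 0.909) by the authors' deposited table. Pth1r, the parathyroid hormone receptor, stood at −0.43 (SE 0.146, adjusted p = 0.125) and −0.22 (SE 0.120, adjusted p = 0.891) by the authors' deposited table. None of the 5 was called at either stage, and their SEs at E14.5, 0.115 to 0.203, were above the 0.065 of Nsmce1. Kcnmb4os2 is named as an antisense gene, so its reads are uncertain.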

How the data were processed

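Polyadenylated RNA of mouse forebrain was measured in 5 WT and 5 KI libraries at each of 2 stages. The submitters' processing notes name mm10, DESeq2 1.26.0, featureCounts 2.0.0, HISAT2 2.1.0 and Trimmomatic 0.39 among others; settings are not given in the sources used here. Per the file headers, the deposited tables hold a mean normalized count (a signal without unit), a log2 fold change with its SE, a score (the Wald statistic), and a p-value with its adjusted p-value. The deposited tables have 0 columns of per-sample values, so depth per library is unknown here. ChIP-seq and ATAC-seq libraries were not analysed here.

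Symbols, positions and start windows came from RefSeq tables of GRCm38.p6, the assembly of mm10; 17192 of 17940 and 15064 of 15449 gene IDs matched. Calls are the authors' Wald tests with Benjamini-Hochberg adjustment. Python 3.11.15, numpy 2.4.6, scipy 1.17.1 and pandas 2.3.3 were used. They gave 95% intervals (log2 fold change ± 1.96 SE), list summaries and windows of 1 Mb. They also gave stage differences (normal test, SE from both stages, adjusted over all genes). The stage-difference test and the adjustment were also run on simulated data. Alternatives tried were the adjustment, the count filter, an empirical null, recentring and the window. Members, lists and rules were chosen with earlier results of these data known. Named genes are the members, Chd8, the first 3 genes of a list with fewer than 3 calls, the tested genes within 1 Mb of Nsmce1 and the 5 nearest patterns; 2 genes under the list rule are not reported here, and every other gene named was chosen after its values were seen.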

Additional observations from a re-analysis of the deposited data

How the results depend on the processing

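Nsmce1 was the only member called lower at E14.5, and no member was called at E18.5, under each of the 5 alternatives of adjustment, filter, null or threshold. For Nsmce1 at E14.5 this is a description, because that value chose the gene. The count over all genes at E14.5, 162, became 56 with Benjamini-Yekutieli adjustment, 31 with an empirical null (19.4% lower in KI, against 38.9%) and 319 at an adjusted p under 0.1. At E18.5 the count of 9 became 4 with Benjamini-Yekutieli adjustment, 14 with only genes of mean normalized count 100 or more, 19 with an empirical null and 18 at an adjusted p under 0.1. Recentring moved no member by more than 0.0059 and changed no call; Nsmce2 at E18.5 changed sign, to 0.0017 against all genes and 0.0051 against genes of like level. Within 250 kb of Nsmce1 the median of its 4 tested neighbours was 0.078 at E14.5 and −0.103 at E18.5; within 5 Mb of Smc5 the median was −0.034 at E14.5. For these shifts the cause was not tested beyond the smaller or larger set of genes. All 16 alternative stage differences kept their direction, and those of the 7 tested members their call. No paired analysis was possible because the tables hold no values per library; leaving out replicates was not run for the same reason, nor were levels per length, for lack of transcript lengths. Without counts per library, the SE limits what could be seen: at E18.5 a member needed a log2 fold change of 0.19 (Smc6) to 0.35 (Nsmce3) to be called.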
